A study of Mus musculus with 18 samples.

Results

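CpG methylation was measured in the main maternal imprint control regions of single mouse oocytes by reduced representation bisulfite sequencing, which reads fragments cut at MspI sites. The 10 regions were taken as fixed windows of the mm9 build, one each for Peg3, Snrpn, Kcnq1ot1, Mest, Peg10, Plagl1, Grb10, Zrsr1, Impact and Igf2r. They were set by position, but as maternal imprints they are known sites of methylation in the egg. They were also chosen with earlier results of these data known. Reads fell in 8 of the 10 windows, at 232 CpG positions of 1160411 on the autosomes. No CpG of the files used here lay in the Peg3 and Plagl1 windows, so these 2 have no value.

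The 18 oocytes came from secondary follicles (SF) or early antral follicles (EAF). At the SF stage 7 were wild type (WT) and 5 were Sall4 knockout (KO). At the EAF stage 4 were WT and 2 were KO. The wild type is Sall4fl/fl, so these females carry the floxed alleles too, and the knockout is Sall4fl/fl;Zp3-Cre. Sall4 codes for a zinc finger protein that binds DNA, and the Zp3 promoter drives Cre in growing oocytes, so deletion takes place within the growth phase. Loss of Sall4 was not measured here. The labels list the postnatal days P12.5 and P17.5 for all samples without tying a day to a stage. Which animals the oocytes came from is not labelled, so a group is 1 sample and no test was made. Standard deviations (SD) and ranges below describe oocytes, and no difference is claimed to exceed chance.

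Each window was given 1 level per oocyte, the methylated counts of its CpGs as a percentage of all counts there. A count is 1 read at 1 CpG, so a read over several CpGs is counted at each. A window was called covered in an oocyte with at least 3 CpGs and 20 counts, which held for 54 window values, 44 of them from reads of 1 strand only. Coverage was thin, from 1 to 6 windows per oocyte. On mm9, Zrsr1 (chromosome 11, 22871001 to 22875000) was covered in 11 oocytes and Impact (chromosome 18, 13130001 to 13133000) in 10. Grb10 (chromosome 11, 11924001 to 11927000) and Peg10 (chromosome 6, 4697001 to 4700000) were covered in 7 each. Snrpn (chromosome 7, 67147001 to 67152000) and Igf2r (chromosome 17, 12933001 to 12936000) were covered in 6 each. Kcnq1ot1 (chromosome 7, 150480001 to 150483000) was covered in 4 and Mest (chromosome 6, 30684001 to 30690000) in 3. The Peg3 window spanned 6679001 to 6685000 on chromosome 7 and the Plagl1 window 12809001 to 12813000 on chromosome 10.

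Maternal imprints are stretches of CpG-rich sequence that are methylated in the egg and unmethylated in sperm. They are erased in primordial germ cells and written anew while the oocyte grows after birth, by DNMT3A together with DNMT3L, and histone H3 lysine 4 must be demethylated by KDM1B at part of them. Different imprints are completed at different times of oocyte growth. After fertilization the mark stays on the maternal chromosome and sets which parental copy of the nearby genes is expressed.

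The sequence at the reads is shown for 2 of the windows, because it lets the reads be placed at a start of transcription. Both are promoters of the GRCm38.p6 build from RefSeq, 250 bases before to 50 after the start. Each was set against the mm9 reads by the spacing of its CpGs, and 1 place within 20 kb of the window fitted every CpG that had been read. Capitals mark the CpGs that were read in at least 1 oocyte. The Snrpn promoter lies at chr7:60005150-60005449 on the minus strand, and 5 of its 7 CpGs were read. Snrpn encodes a core protein of the splicing machinery and is expressed from the paternal copy. The second sequence is an alternative promoter of Commd1 at chr11:22972817-22973116 on the minus strand, and 15 of its 17 CpGs were read. Zrsr1, a paternally expressed gene for an RNA-binding protein that arose by retrotransposition, sits inside an intron of Commd1, and this promoter falls within the Zrsr1 window.
Snrpn promoter: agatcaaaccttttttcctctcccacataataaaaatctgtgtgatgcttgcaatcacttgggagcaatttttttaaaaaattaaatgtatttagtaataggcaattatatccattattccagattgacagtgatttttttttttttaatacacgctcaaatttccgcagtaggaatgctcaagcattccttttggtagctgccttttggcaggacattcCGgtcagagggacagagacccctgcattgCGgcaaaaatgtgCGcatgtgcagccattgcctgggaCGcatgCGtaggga
Commd1 alternative promoter: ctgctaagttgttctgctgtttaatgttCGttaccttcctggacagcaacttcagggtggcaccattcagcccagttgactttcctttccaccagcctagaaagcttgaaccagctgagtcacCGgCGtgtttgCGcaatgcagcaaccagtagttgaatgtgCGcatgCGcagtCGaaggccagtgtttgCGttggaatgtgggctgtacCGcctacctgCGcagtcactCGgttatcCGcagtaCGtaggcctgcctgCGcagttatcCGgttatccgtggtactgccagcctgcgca

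At the Snrpn promoter, EAF WT replicate 1 was methylated in 100% of 88 counts and SF WT replicate 3 in 78.6% of 28. SF WT replicates 2 and 6 stood at 0% and 100% there, on only 5 counts each. The knockout oocytes read there were SF KO replicate 3, at 20% of 40 counts, and SF KO replicate 4, at 0% of 808. At the Commd1 alternative promoter, EAF WT replicate 4 stood at 92.3% of 78 counts. EAF KO replicate 1 stood at 0% of 193 counts and SF KO replicate 1 at 0% of 354. SF WT replicate 3 also stood at 0% there, on only 13 counts. At both promoters the EAF WT oocyte was nearly or fully methylated and each KO oocyte was at 20% or below. A thinly read SF WT oocyte was at 0% at each promoter as well. No EAF KO oocyte was read at the Snrpn promoter, so the stages differ there too.

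The first question was whether the imprint windows of nearly grown oocytes were methylated without Sall4. In EAF WT oocytes the 6 windows covered there were close to full methylation. In EAF KO oocytes only 3 windows were covered, Peg10, Grb10 and Zrsr1. They were at 0% in 4 of 5 values, with Peg10 at 29.1% in replicate 2. All 8 covered window values of EAF WT oocytes were at 80% or above, from 83.6% to 100%, and 5 of them were at 100%. Of the 5 covered values of EAF KO oocytes, 4 were at 20% or below, 1 was between, and none was at 80% or above. As the background, the autosomes were cut into 4-kb regions under the same coverage rule, and 13.1% of region values in EAF WT oocytes and 1.57% in EAF KO oocytes were at 80% or above. At 20% or below were 66.8% of region values in EAF WT and 80.5% in EAF KO.

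Averaged over its covered windows, each EAF WT oocyte stood at 100%, 86.8%, 100% and 87.9% (replicates 1 to 4), and the 2 EAF KO oocytes at 0% and 9.69%. The group means were 93.7% ± 7.31 (SD, n = 4) and 4.84% ± 6.85 (SD, n = 2), a difference of -88.8 points, and the oocytes of the 2 groups did not overlap. The oocytes of this average were not all read at the same windows, and Snrpn, Impact and Igf2r entered it in WT oocytes only.

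**Figure D1:**
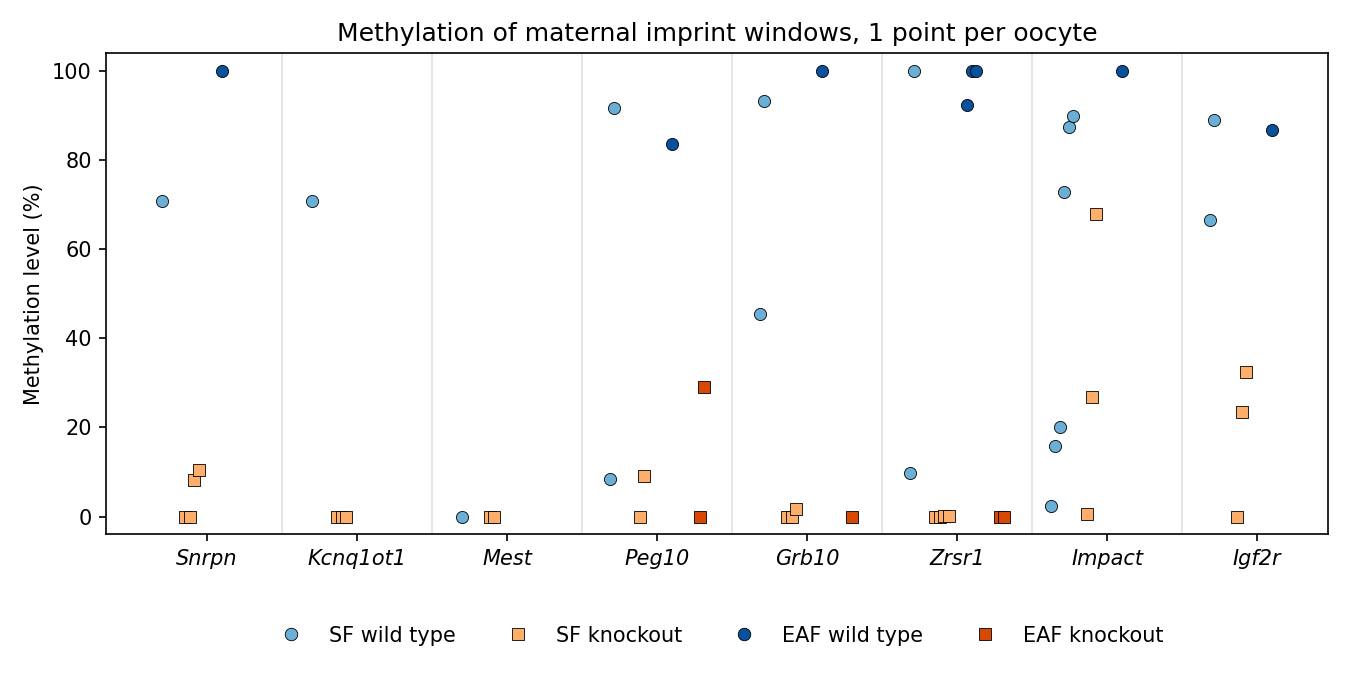
Methylation level (%) of each imprint window with reads, 1 point per covered oocyte, by stage and genotype. Values under the coverage rule of 3 CpGs and 20 counts are not shown. The EAF WT points lie between 83.6% and 100%, and the KO points lie mostly at or near 0%.

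Zrsr1 was the window with the most EAF oocytes. Its level was 100% of 182 counts in EAF WT replicate 1, 100% of 220 in replicate 3 and 92.3% of 78 in replicate 4. It was 0% of 307 counts in EAF KO replicate 1 and 0% of 254 in replicate 2. These allow levels of up to 0.977% and 1.18% if counts are taken as independent, which counts of the same read are not. The means were 97.4% ± 4.44 (SD, n = 3) and 0% (n = 2), a difference of -97.4 points with no overlap. This was the 1 window that could be compared at the EAF stage with 2 covered oocytes on each side, and it was lower in KO by 20 points or more. Among 2727 autosomal regions under the same rule, 15.6% were lower in KO by that much, 2.13% were higher, and 18% were lower in KO with no overlap. At the 43 Zrsr1 CpGs read in both genotypes, 0 of 432 counts were methylated in KO and 355 of 361 (98.3%) in WT.

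**Figure D2:**
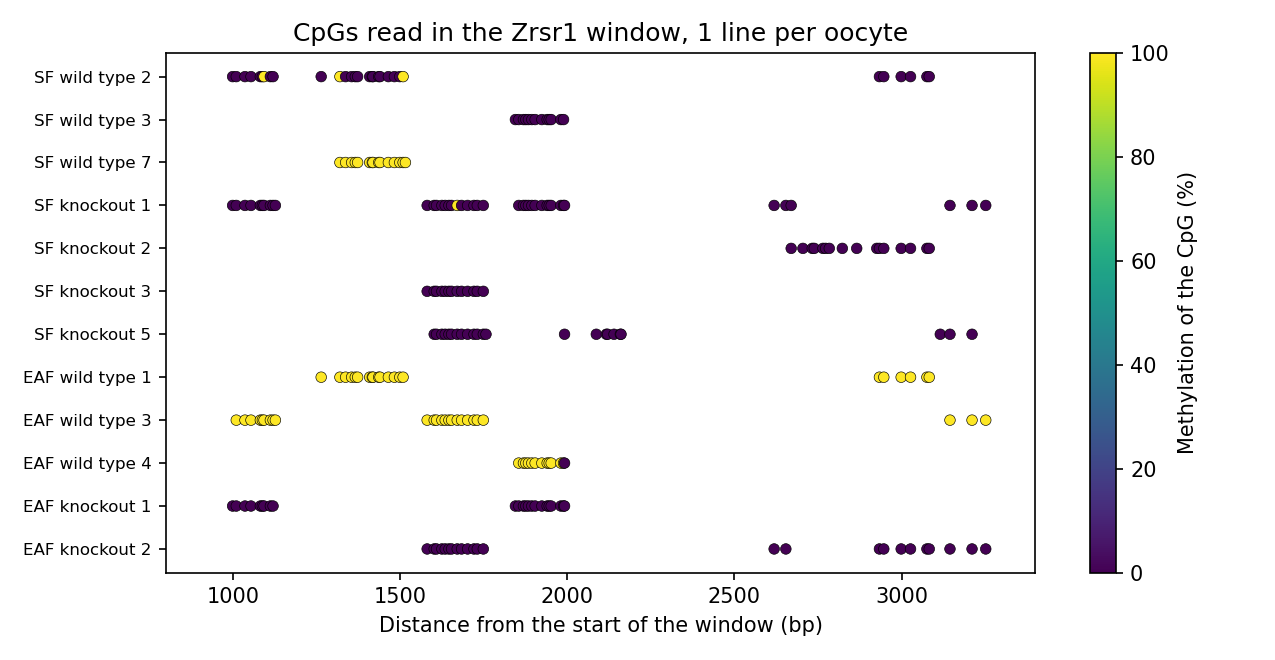
Methylation (%) of single CpGs in the Zrsr1 window against their distance from its start in bp, with 1 line of points per oocyte. The CpGs of EAF WT oocytes are methylated nearly throughout, and those of both EAF KO oocytes are at 0%.

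Grb10 and Peg10 were read in both genotypes at the EAF stage, each in 1 WT oocyte. Grb10 encodes an adaptor protein that restrains growth signalling, maternally expressed in most tissues and paternally in neurons. It was at 100% of 143 counts in EAF WT replicate 1 and at 0% of 44 counts in EAF KO replicate 2. Peg10, a paternally expressed gene derived from a retrotransposon and required in the placenta, was at 83.6% of 414 counts in EAF WT replicate 4. It was at 0% of 62 counts in EAF KO replicate 1 and at 29.1% of 117 in replicate 2, the highest covered KO value at this stage. In that oocyte the reads of the plus strand were methylated in 8.33% of counts and those of the minus strand in 62.2%. Both windows were thus lower in each KO oocyte than in the WT oocyte, but mostly on unlike strands. At Grb10 the WT oocyte was read on the plus strand alone and the KO oocyte on the minus strand alone. At Peg10 the WT oocyte was read on the minus strand alone and EAF KO replicate 1 on the plus strand alone. On the minus strand of Peg10, EAF KO replicate 2 stood at 62.2% against 83.6% in WT. The sums that follow do not match strands. Over all 69 CpGs of the 3 windows read in both EAF genotypes, 28 of 640 counts (4.38%) were methylated in KO and 837 of 911 (91.9%) in WT. Of these 69 CpGs, 65 were lower in KO by at least 50 points and 0 were higher by as much. Among 222698 autosomal CpGs outside the windows read in both EAF genotypes, 13.9% were lower and 3.92% higher by as much.

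The other covered EAF values came from WT oocytes alone. Snrpn was at 100% of 183 counts in EAF WT replicate 1. Impact, a gene for an inhibitor of the stress kinase GCN2, was at 100% of 51 counts in EAF WT replicate 3. Igf2r encodes a receptor that clears the growth factor IGF2, and its imprinted window covers the start of Airn, a noncoding RNA that silences Igf2r on the paternal copy. It was at 86.8% of 53 counts in EAF WT replicate 2, and at 0% in EAF KO replicate 1 on 12 counts, too few to count as covered. Kcnq1ot1 was at 10% in EAF KO replicate 2 on 10 counts, also too few. Every covered WT value of these windows was therefore high, and no covered KO value stands against them.

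At the SF stage, when imprints are still being written, the WT oocytes were mixed and the KO oocytes were low. Of 17 covered WT values, 6 were at 80% or above, 5 between and 6 at 20% or below. Of 24 covered KO values, 0 were at 80% or above, 4 between and 20 at 20% or below, and 13 of them were at 0%. Among autosomal region values, 6.89% of those of SF WT and 3.03% of those of SF KO oocytes were at 80% or above, and 71.4% and 77.3% at 20% or below.

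**Figure D3:**
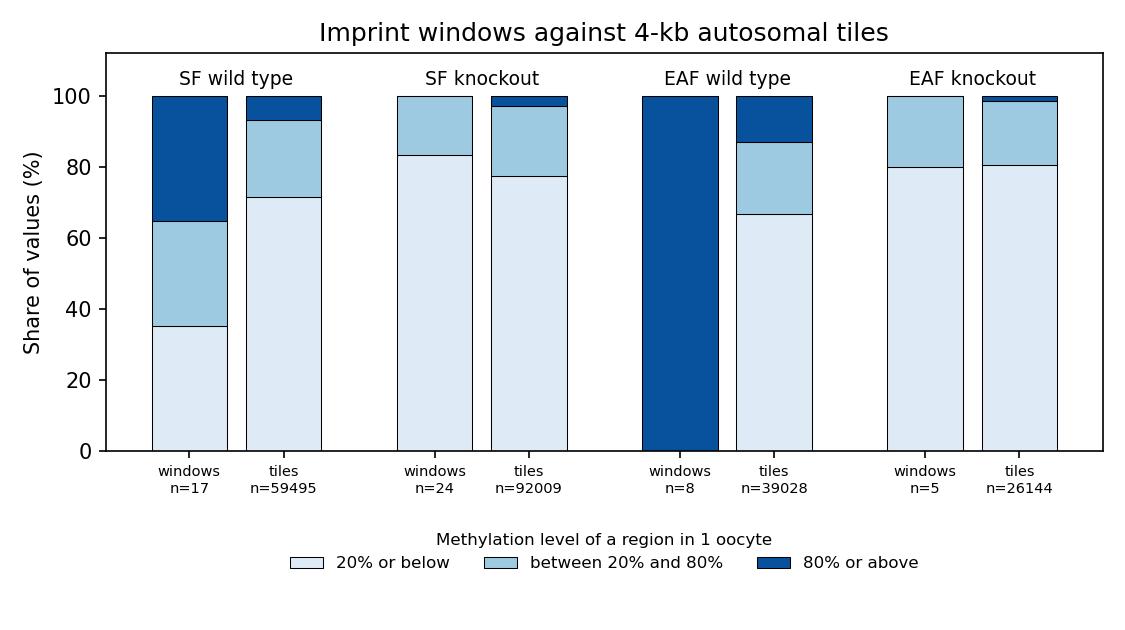
Share (%) of covered window values per group that lay at 80% or above, between 20% and 80%, or at 20% or below. Beside each is the same for 4-kb autosomal regions (tiles), with the number of values under each bar. SF WT window values are spread over all 3 states, the 8 EAF WT window values are all high, and no KO window value of either stage is.

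The SF WT oocytes ranged from 24.1% to 100% in their mean over covered windows, with a median of 59.2%. The 5 SF KO oocytes stood at 13.6%, 0%, 7.57%, 0% and 13.5% (replicates 1 to 5). The group means were 59.5% ± 28.0 (SD, n = 7) and 6.93% ± 6.78 (SD, n = 5), a difference of -52.6 points with no overlap.

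Of the 5 windows with 2 covered oocytes of each SF genotype, 4 were lower in KO by 20 points or more, and 3 had no overlap. Among 10803 autosomal regions, 11.9% were lower by that much, 4.17% were higher and 7.63% were lower with no overlap. The 4 windows were Grb10, Igf2r, Zrsr1 and Peg10, and the fifth was Impact, which was lower by 16.4 points.

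Grb10 stood at 45.6% of 248 counts in SF WT replicate 5 and 93.3% of 45 in replicate 6. In SF KO it stood at 0% of 625 counts in replicate 1, 1.69% of 177 in replicate 3 and 0% of 55 in replicate 4. The difference of the means was -68.9 points, or -45.0 without SF WT replicate 6. With counts taken as independent, the zero of KO replicate 1 allows a level of up to 0.48%. The same 15 CpGs were read in both WT oocytes and in KO replicates 1 and 4, where 155 of 293 WT counts (52.9%) and 0 of 680 KO counts were methylated.

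Igf2r stood at 88.9% of 27 counts in SF WT replicate 1 and 66.6% of 461 in replicate 4. In SF KO it stood at 0% of 111 counts in replicate 1, 23.5% of 68 in replicate 3 and 32.4% of 284 in replicate 5, a difference of -59.1 points. KO replicate 1 was read at other CpGs of the window than the remaining 4 oocytes. At the 9 CpGs read in both genotypes, 108 of 352 KO counts (30.7%) and 331 of 488 WT counts (67.8%) were methylated. Igf2r was thus lower in KO without overlap, though 2 of its 3 KO values lay between 20% and 80%.

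Peg10 stood at 8.33% of 24 counts in SF WT replicate 1 and 91.6% of 95 in replicate 6. In SF KO it stood at 9.09% of 44 counts in replicate 3 and 0% of 23 in replicate 4. The mean differed by -45.4 points, but the lower WT oocyte lay within the KO range, so this difference rests on 1 WT oocyte. Without SF WT replicate 6 it was -3.79 points, and without replicate 1 it was -87.0. Zrsr1 stood at 9.77% of 471 counts in SF WT replicate 2 and 100% of 28 in replicate 7. In SF KO replicates 1, 2, 3 and 5 it stood at 0.213% of 469 counts, 0% of 37, 0.131% of 765 and 0% of 47. The mean differed by -54.8 points with no overlap among covered oocytes, while SF WT replicate 3, on 13 counts, was at 0%. Without SF WT replicate 7 it was -9.68 points, and without replicate 2 it was -99.9. Rules that drop the 28 counts of replicate 7 gave -9.59 points (at least 10 CpGs and 50 counts) and -9.41 points (at least 5 reads per CpG), so the call rests on that oocyte. The CpGs that both genotypes shared were those of the low WT oocytes, and there 40 of 434 WT counts (9.22%) and 0 of 428 KO counts were methylated.

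Impact was the window covered in the most SF WT oocytes, and they were spread widely. SF WT replicates 1 to 6 stood at 87.5%, 15.9%, 2.36%, 20%, 72.8% and 89.9%, on 45 to 1267 counts, a mean of 48.1% ± 39.6 (SD, n = 6). SF KO replicates 1, 3 and 5 stood at 67.8% of 59 counts, 0.613% of 1305 and 26.8% of 157, a mean of 31.7% ± 33.9 (SD, n = 3). The difference of -16.4 points was smaller than either SD, and the genotypes overlapped. It was -34.4 points without SF KO replicate 1 and -0.808 without SF KO replicate 3, and -8.0 without SF WT replicate 6. It passed 20 points without SF WT replicates 2, 3 or 4, at -22.8, -25.5 and -22.0, and with at least 10 CpGs and 50 counts, at -27.8. Counting only CpGs with 5 or more reads, the Impact difference came to -4.64 points. The oocytes were partly read at different CpGs. KO replicates 3 and 5 were read from 1728 to 1881 bp of the window, WT replicates 1, 3 and 4 from 1881 to 2014 bp. At the 20 CpGs read in both genotypes, 86 of 1439 KO counts (5.98%) and 1708 of 2754 WT counts (62.0%) were methylated. These sums weigh the deeply read oocytes most, chiefly KO replicate 3 and WT replicate 5. In SF KO replicate 1, the only KO oocyte above 50% at any window, the first 10 CpGs read had 0 of 19 counts methylated and the other 8 had 40 of 40.

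Snrpn, Kcnq1ot1 and Mest were covered in 1 SF WT oocyte each, so their differences have no spread on the WT side. Snrpn stood at 70.9% of 55 counts in SF WT replicate 3, with an exact 95% interval of 57.1% to 82.4%. In SF KO replicates 2 to 5 it stood at 0% of 71 counts, 10.4% of 77, 0% of 1615 and 8.25% of 97. The zero on 1615 counts allows a level of up to 0.186%. This limit and the interval take counts as independent, though a read is counted at each of its CpGs, so they can be too narrow. SF WT replicates 2 and 6, under the coverage rule, stood at 0% of 10 and 94.4% of 18 counts. All covered KO values of Snrpn were below the covered WT value, while 1 thinly read WT oocyte was at 0%. SF KO replicates 3 and 4 were read at the same 10 CpGs as the covered WT oocyte. SF KO replicates 2 and 5 shared no CpG with it.

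The Kcnq1ot1 window holds the promoter of a long noncoding RNA that silences neighbouring genes on the paternal copy. It stood at 70.8% of 359 counts in SF WT replicate 2, with an exact 95% interval of 65.7% to 75.4%, again with counts taken as independent. It was at 0% in SF KO replicates 1, 2 and 4, on 30, 70 and 66 counts. Mest, a paternally expressed gene for a hydrolase-like protein, was at 0% wherever it was read, on 20 counts in SF WT replicate 2 and on 136 and 180 in SF KO replicates 2 and 5. The reads of Mest lay between 1294 and 1476 bp from the start of the window, and no Mest promoter could be placed on them. No EAF oocyte was covered at Mest, so these data give no methylated value of that window in any oocyte.

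Over the 118 CpGs of the 8 windows read in both SF genotypes, covered or not, 207 of 5221 KO counts (3.96%) and 2633 of 4516 WT counts (58.3%) were methylated. Of these CpGs, 49 were lower in KO by at least 50 points, 3 were higher by as much and 60 differed by at most 20. Among 441101 autosomal CpGs outside the windows, 9.7% were lower and 4.37% higher by at least 50 points.

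The next question was how the windows moved between the SF and EAF stages. In WT, the mean over windows was 34.2 points higher at the EAF stage, and in KO it differed by -2.09 points. The 2 stage differences differed by -36.3 points, which was not tested. The WT stages overlapped, since SF WT replicates 6 and 7 stood at 91.6% and 100%. Only Zrsr1 had 2 covered oocytes at both WT stages, and it was 42.6 points higher at the EAF stage. Among 5813 autosomal regions, 9.86% were higher by 20 points or more and 2.29% lower. This difference rests on SF WT replicate 2, since without it Zrsr1 was at 100% in the only covered SF WT oocyte and the difference was -2.56 points. In KO, 0 of the 2 comparable windows, Peg10 (9.98 points higher) and Zrsr1 (at most 0.213% in all 6 oocytes), differed by 20 points, against 4.23% of regions lower and 2.48% higher.

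CpGs read at both stages gave the same direction in WT and hardly a difference in KO. At 85 CpGs shared by the WT stages, 44.9% of SF counts and 93.9% of EAF counts were methylated. At 92 CpGs shared by the KO stages, the shares were 4.27% and 4.36%. At 8 CpGs of Impact read in both WT stages, 685 of 1350 SF counts (50.7%) and 51 of 51 EAF counts were methylated. At 14 CpGs of Grb10, 49.8% of 275 SF counts and 100% of 136 EAF counts were methylated.

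Within 1 window of 1 oocyte the level was made of CpGs that were methylated in all reads or in none. Among window CpGs with at least 5 reads, 467 of 505 (92.5%) had reads that all agreed, against 81.1% of other autosomal CpGs. In EAF WT oocytes this held for 109 of 109. Reads of 1 CpG from 1 cell can be PCR copies of few molecules, and the files do not tell copies apart, so how many chromosome copies were read is unknown.

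Intermediate levels therefore came mostly from a patchwork along the fragment. In SF WT replicate 5, 7 of 15 Grb10 CpGs were methylated in all reads, 8 in none and 0 in part. In SF WT replicate 4, 6 of 9 Igf2r CpGs were methylated in all reads and 3 in none, and in SF WT replicate 3 the Snrpn CpGs split 7 to 3. The gap to full methylation in EAF WT oocytes had the same form. There Peg10 had 10 CpGs methylated in all reads and 2 in none, Zrsr1 of replicate 4 had 12 and 1, and Igf2r had 8 and 1.

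Mixed reads at 1 CpG were mostly found in a few oocytes. Impact had 10 of 11 CpGs mixed in SF KO replicate 5 and 4 of 19 in SF WT replicate 6. In SF KO replicate 3 it had 8 of 13 mixed, but each with only 1 methylated count, of 51 to 119. Peg10 had 6 of 13 mixed in EAF KO replicate 2, where both strands were read. By CpG state at 5 or more reads, EAF WT windows had 105 of 109 CpGs at 80% or above, and EAF KO windows had 1 of 52. SF WT windows had 73 of 132 and SF KO windows 15 of 212 at that level. Of other autosomal CpGs, 15.6% in EAF WT, 5.17% in EAF KO, 10.7% in SF WT and 7.22% in SF KO oocytes were at that level, as means over oocytes.

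**Figure D4:**
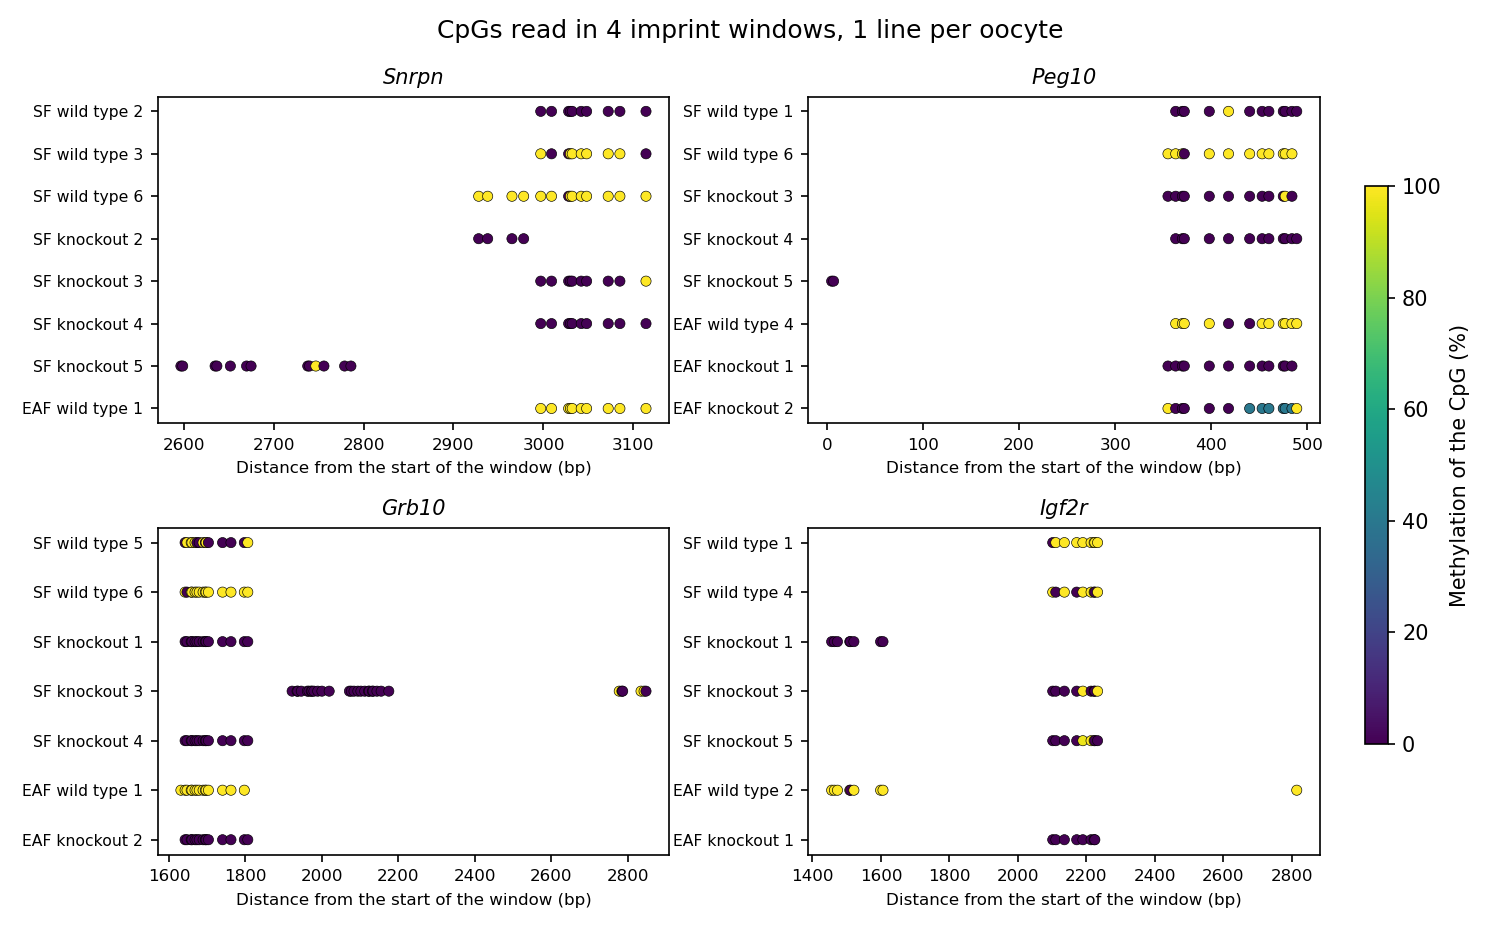
Methylation (%) of single CpGs in the Snrpn, Peg10, Grb10 and Igf2r windows against their distance from the start of the window in bp, 1 line of points per oocyte and 1 point per CpG with reads. Grb10 in SF WT replicate 5 alternates between methylated and unmethylated CpGs, where EAF WT replicate 1 is methylated at all 15 CpGs and EAF KO replicate 2 at none.

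Windows of the same oocyte did not always stand at the same level. Of 6 SF WT oocytes with at least 2 covered windows, 3 spanned more than 50 points between their windows, by up to 80.6 points. SF WT replicate 2 stood at 70.8% at Kcnq1ot1, 15.9% at Impact, 9.77% at Zrsr1 and 0% at Mest. SF WT replicate 1 stood at 88.9% at Igf2r, 87.5% at Impact and 8.33% at Peg10. In EAF WT oocytes the span was at most 8.73 points. An order in which the windows gain methylation could not be read, because no pair of windows was covered together in more than 2 SF WT oocytes.

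The genotype difference of the windows was set against the rest of the autosomes, since these also differed. The mean over autosomal CpGs outside the windows was 19.5% to 23.1% in EAF WT and 8.77% to 10.6% in EAF KO oocytes. At the SF stage it was 5.49% to 24.4% in WT and 8.85% to 21.8% in KO, with overlap. Averaged per oocyte over its covered 4-kb regions, as the windows were, the genotypes differed by -13.5 points at the EAF stage and -5.32 points at the SF stage, where the windows differed by -88.8 and -52.6 points. Over regions covered in both genotypes the mean difference per region was -7.38 and -4.65 points.

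**Figure D5:**
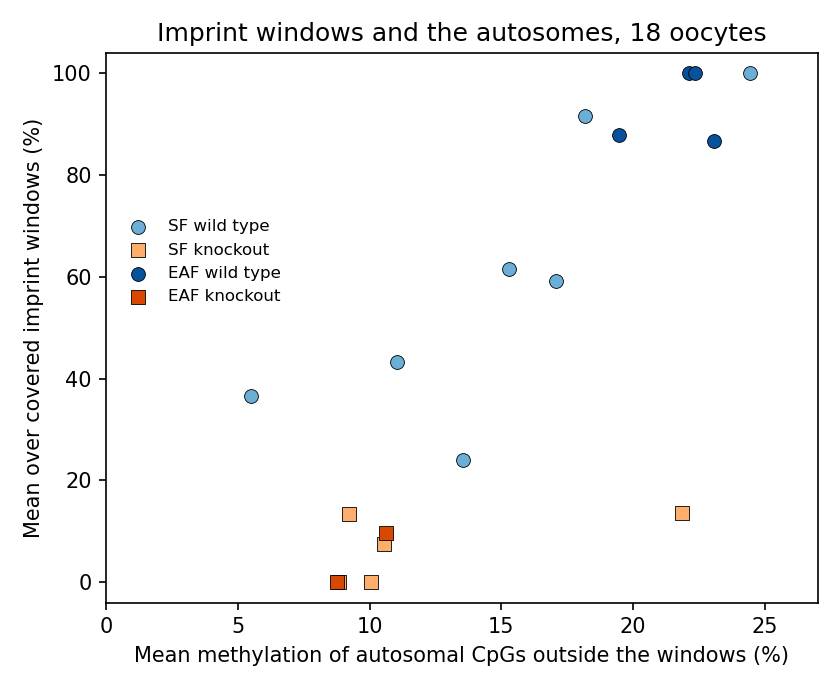
Mean methylation (%) over the covered imprint windows against the mean over autosomal CpGs outside them (%), 1 point per oocyte, by stage and genotype. All KO oocytes lie at 13.6% or below on the window axis, including SF KO replicate 1, which stands at 21.8% on the autosomal axis.

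SF KO replicate 1 stood apart from the other SF KO oocytes outside the windows, at 21.8% against 8.85% to 10.5%. Within them it stood at 0% at Kcnq1ot1, Grb10 and Igf2r, at 0.213% at Zrsr1 and at 67.8% at Impact. Without this oocyte the SF genotype difference of the windows was -54.2 points. In SF WT oocytes the window mean was higher where the autosomal mean was higher, with Pearson's r of 0.818 and Spearman's rho of 0.857 over 7 oocytes. Without the 2 oocytes farthest from the median of the autosomal mean, r was 0.769. Each pair of values shares a library, and the windows read differ between oocytes.

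Most autosomal CpGs are unmethylated in oocytes, so regions that were highly methylated in WT are the closer comparison. They were picked after their values were seen, by the WT values the difference uses, so their differences are a description. Of 94 regions with an EAF WT mean at 80% or above, 51.1% had an EAF KO mean at 20% or below. At the SF stage this held for 59.9% of 379 regions. Levels of 20% or below in KO were therefore found at many regions besides Zrsr1 that were high in WT. A further set was CpGs outside the windows with an EAF WT mean at 80% or above. Those with at least 10 CpGs read within 100 bp stood at 91.7% ± 0.852 (SD, n = 4) in EAF WT. They stood at 57.3% ± 1.64 (SD, n = 2) in EAF KO, at 68.4% ± 5.80 (SD, n = 7) in SF WT and at 55.1% ± 9.0 (SD, n = 5) in SF KO.

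CpG density was counted over CpGs read in at least 1 oocyte, the CpG itself included, and not over the genome sequence. By this count the windows were denser, with a median of 10 CpGs within 100 bp of each CpG against 7 for other autosomal CpGs. Where 10 to 19 CpGs lay within 100 bp, window CpGs averaged 57.1% in SF WT, 7.82% in SF KO, 94.4% in EAF WT and 12.0% in EAF KO. Other autosomal CpGs of that density averaged 13.5%, 12.6%, 18.9% and 10.9% in the same groups. At this density the WT windows were above other CpGs, and the EAF KO mean was that of 1 oocyte at 0% and 1 at 24%. Where 5 to 9 CpGs lay within 100 bp, window CpGs averaged 29.1% ± 38.0 (SD, n = 6) in SF WT and 96.4% ± 7.14 (SD, n = 4) in EAF WT, against 20.3% and 26.7% for other CpGs. There the SF WT windows differed from other CpGs by less than their own spread. KO window CpGs of this density averaged 9.22% in SF and 7.86% in EAF oocytes, against 15.7% and 12.96% for other CpGs.

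Depth differed between the groups compared. Counts summed over CpGs ranged from 464501 to 6518646 per oocyte. All SF KO libraries, with at least 3688890 counts, were deeper than all SF WT libraries, with at most 3665846. EAF WT libraries held 982829 to 1903629 counts and the 2 EAF KO libraries 942232 and 4161741. Within the windows the sums ran from 28 to 2436. On the mitochondrial genome, 0% to 5.86% of counts were methylated, with the highest shares in SF WT replicates 2 and 4, and at most 0.374% in EAF oocytes. The part of depth, and of any difference in age or animal between the genotypes, in these differences was not tested.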

How the data were processed

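Single oocytes were processed to MspI bisulfite libraries, per the labels' protocols, with unmethylated lambda DNA added, whose reads were not analysed here. The submitters' processing notes name BSMAP 2.89 and mm9. The deposited tables hold, per CpG, the counts of all reads and of methylated reads for both strands and each strand, and a methylation ratio, a fraction from 0 to 1, per the file headers. The fraction matched methylated over total counts to within 0.0005. No source used here gives the filters behind these tables.

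Window levels were summed methylated over summed total counts, with at least 3 CpGs and 20 counts. Group values are means over oocytes. Autosomal regions of 4 kb outside the windows followed the same rule. A difference was called at 20 points with at least 2 covered oocytes per group. Intervals are exact binomial (Clopper-Pearson) at 95%, and the limit for a 0 is 3 counts of the total. Both cover counting error only and take counts as independent. Counts of the same read, or of PCR copies, are not, so both can be too narrow. At most 5.65% of the CpG counts of any 2 libraries were equal, so none was taken as a repeat. The computations were checked on made-up counts with known levels. Alternatives changed the coverage rule, weighting, window and region size and the oocytes included. All windows with reads are named, so no gene was picked by value. Windows, lists and rules were chosen with earlier results of these data known. No annotation of mm9 was used, and 4 of 17 promoter sequences could be placed by CpG spacing. Python 3.11.15, numpy 2.4.6, pandas 2.3.3 and scipy 1.17.1 were used.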

Additional observations from a re-analysis of the deposited data

How the results depend on the processing

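Under every alternative run, the 5 differences of the mean over windows kept their side of the 20-point call. Leaving out 1 oocyte at a time, the EAF genotype difference ran from -93.7 to -84.0 points, the SF genotype difference from -58.4 to -45.8, the WT stage difference from 28.3 to 41.0, the KO stage difference from -6.93 to 2.76 and the contrast of stage differences from -43.0 to -30.4. Equal replicate numbers are not tied by the labels, so oocytes were left unpaired. A replicate block kept only replicate numbers found in both groups, 2, 5, 4 and 2 of them for the first 4 differences. It dropped SF WT replicates 6 and 7, the highest of their group, wherever SF WT was compared. With it the same differences were -88.6, -38.0, 52.3, -1.96 and -50.5 points. An alternative added after the values were seen compared only CpGs read in both groups, and gave -91.8, -43.6, 46.3 and -0.326 points for the first 4. Of 118 alternative values of single windows, 117 moved by less than the spread between oocytes, among them the small Peg10 difference between the KO stages, which was -4.55 points without EAF KO replicate 2 against 9.98. Many of the 118 left out an oocyte that did not cover the window, so they could not move. The spread was also wide, with an SD of 63.8 for Zrsr1 and 58.9 for Peg10 in SF WT (n = 2 each). This count therefore does not show that single windows were stable. Zrsr1 between the WT stages was -2.56 points without SF WT replicate 2, a change of direction, 87.7 without replicate 7, and up to 90.8 under rules on reads per CpG. Single SF windows with 2 WT oocytes lean on each of them, as given beside Peg10, Zrsr1 and Grb10 above. With at least 10 CpGs and 50 counts, Zrsr1 in SF oocytes lost its call and Impact gained one. Except for regions lower in EAF KO, shares of regions past 20 points then fell by more than 1.5 times: 1.07% against 2.13% higher in EAF KO, and, lower first, 4.63% against 11.9% and 1.06% against 4.17% in SF KO, 0.874% against 2.29% and 4.90% against 9.86% between the WT stages, and 1.74% against 4.23% and 1.25% against 2.48% between the KO stages. The alternative with only windows covered in every oocyte could not be run, because no window was.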

Other observations

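Promoters beside 2 of the windows were also read. The upstream Grb10 promoter, 10374 bp from the Grb10 window, was at 0% of 215 counts in EAF KO replicate 2, like the window itself. The main Commd1 promoter, 7235 bp from the Zrsr1 window, was at 0% of 241 counts in EAF KO replicate 2, of 128 in SF KO replicate 2 and of 137 in SF KO replicate 4. No WT oocyte was read well enough at either promoter for a comparison, but the few WT counts were low too. At the upstream Grb10 promoter SF WT replicate 1 stood at 6.25% of 16 counts and replicate 5 at 0% of 4. At the main Commd1 promoter SF WT replicate 3 stood at 0% of 10 counts. Low levels there were thus not seen in KO oocytes alone.

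Within 10 kb beside the Peg10 window, EAF WT oocytes were at 96.1% ± 5.47 (SD, n = 2) and SF KO oocytes at 35.9% ± 30.1 (SD, n = 2). In SF KO replicate 3 this flank stood at 57.2% and the Peg10 window at 9.09%. Windows of imprints that are written in sperm, taken from background knowledge, were read in few oocytes. The Dlk1-Meg3 window had 0 of 95 counts methylated in SF WT replicate 1. The H19 window had 0 of 2 in SF KO replicate 3 and 0 of 2 in SF KO replicate 5, and the Rasgrf1 window had no reads.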
